A study of Mus musculus with 6 samples.

Results

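The genes described here encode enzymes that feed and run mitochondrial oxidation in CAD cells, a mouse catecholaminergic neuronal cell line. They were chosen by gene symbol from a list of 51 names, all of which had a row among the 24318 genes of the table. Of these, 26 belong to fatty acid beta-oxidation, 17 to the tricarboxylic acid (TCA) cycle with pyruvate dehydrogenase, and 8 are aldehyde dehydrogenases. All cells were the same line and differed by siRNA: 3 libraries came from cells given an siRNA against circGIGYF2, a circular RNA back-spliced from exons of Gigyf2 (siCircGigyf2), and 3 from cells given the control siRNA, si NC (siNC). Total RNA depleted of ribosomal RNA was sequenced as paired reads, and the values are FPKM, fragment counts scaled to transcript length and sequencing depth, so that levels can be compared between genes of different length. The labels name 1 siRNA target and 1 control, and give neither the time after transfection nor whether the 3 samples of a group were separate cultures.

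Beta-oxidation shortens fatty acids in repeated rounds of dehydrogenation, hydration, a further dehydrogenation and thiolysis, with carnitine palmitoyltransferases bringing the acyl groups into the mitochondrion. The acetyl-CoA released there, like that made from pyruvate by the pyruvate dehydrogenase complex, enters the TCA cycle through citrate synthase. Mitochondrial aldehyde dehydrogenases oxidise aldehydes that arise from amino acids, lipids, ethanol and amines. Neurons rely mainly on glucose-derived pyruvate, and beta-oxidation in brain is ascribed largely to astrocytes.

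The 3 siCircGigyf2 libraries had FPKM sums of 604881 to 624645 and the siNC libraries 578627 to 601552, and the steps between low values put their relative depth at 0.802 to 0.914 and 0.952 to 1 of siNC replicate 1. The groups did not overlap in either measure, and the part of this in the results was not tested. Of 13 markers of catecholaminergic neurons, 12 reached a mean of 1 FPKM, and their summed level was 647 to 664 FPKM with siCircGigyf2 and 556 to 560 with siNC. The markers did not move one way. Tubb3 was at 172 to 187 FPKM with siCircGigyf2 against 116 to 123 with siNC, Ina at 68.7 to 70.4 against 39.9 to 43.3 and Hand2 at 167 to 171 against 146 to 152. Slc18a1 was higher too, at 4.67 to 5.01 against 3.48 to 3.80 FPKM. Gata2 was lower, at 15.0 to 17.1 against 18.6 to 19.6 FPKM, as was Dbh, which makes noradrenaline, at 0.925 to 1.31 against 1.34 to 2.14. Th, tyrosine hydroxylase, was at 2.82 to 3.77 against 3.53 to 4.85 FPKM and Phox2a at 55.4 to 64.8 against 64.8 to 70.9, and the groups overlapped for both. Of 7 glial and 2 blood markers, none reached a mean of 1 FPKM, and Aqp4, Ptprc and Hba-a1 were listed at 0 in all 6 libraries. Of 2 endothelial markers, Pecam1 lay between 5.86 and 7.13 FPKM, above Th, and Cdh5 was at most 0.0693. The 5 fibroblast and muscle markers summed to 1.82 to 2.11 FPKM with siCircGigyf2 and 1.21 to 1.44 with siNC, with Col3a1 listed at 0 throughout. The part of these markers in the results was not tested. In bulk RNA, fewer cells of a type and less RNA per cell cannot be told apart.

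The gene with the largest change among the members, Hadh, holds the 7 bases GCCTACA at 2 places in its annotated 3' UTR. This sequence is shown because an earlier analysis of these same libraries had picked it from the genes that fell, so that its presence in a member that fell is a description and no independent evidence. Of 10444 tested genes with an annotated 3' UTR, 678 (6.49%) held it and 56 (0.536%) held it more than once. Of the 51 members, 5 held it, and Hadh alone among them more than once. Capitals mark the 7 bases and small letters the flanks. The sequences are from GENCODE M21 on GRCm38, 5′ to 3′ on the strand of the gene, at chr3:131233784-131233812 and chr3:131233696-131233724 (minus strand) for Hadh, chr9:104127581-104127609 (plus) for Acad11, chrX:160122929-160122957 (minus) for Pdha1 and chr1:66831410-66831433 (minus) for Acadl.
Hadh, upstream site: ggagccacgggGCCTACAgatgcacccaa
Hadh, downstream site: ctcgagccttaGCCTACAttctgggcctg
Acad11: ttacatattgaGCCTACAtcgaattatat
Pdha1: tgcatgccagaGCCTACAgaggacaccac
Acadl: acatctGCCTACAtcctggaatcc
Hadh, Acad11 and Pdha1 fell, and Acadl did not pass the test, as described with each gene. The remaining holder, Aldh5a1, was too low to be tested.

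The comparison asked which members differed after circGigyf2 was targeted. Each gene with a mean of at least 1 FPKM was tested with limma on log2(FPKM + 1), and differences are siCircGigyf2 minus siNC on that scale. Adjusted p-values are Benjamini-Hochberg values over all 11420 genes tested, with 0.05 as the threshold. The host gene Gigyf2, whose row pools linear and circular molecules, averaged 21.4 ± 0.330 FPKM (SD, n = 3) against 23.2 ± 0.0749 and had an adjusted p of 0.0287. Of the 51 members, 50 were tested, all but Aldh5a1. Of these, 5 rose and 12 fell, or 34% in all, where 38.2% of all genes tested passed (19.5% higher and 18.7% lower). The share of members that changed in either direction was therefore close to that of the whole table. By direction, 10% of the tested members rose and 24% fell. The siCircGigyf2 libraries lay wholly above or below the siNC libraries for 22 of the 50, 9 of them higher and 13 lower, against 51.0% of all genes tested (25.7% higher and 25.3% lower). Those 22 comprised the 17 that passed and 5 that did not.

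**Figure D1:**
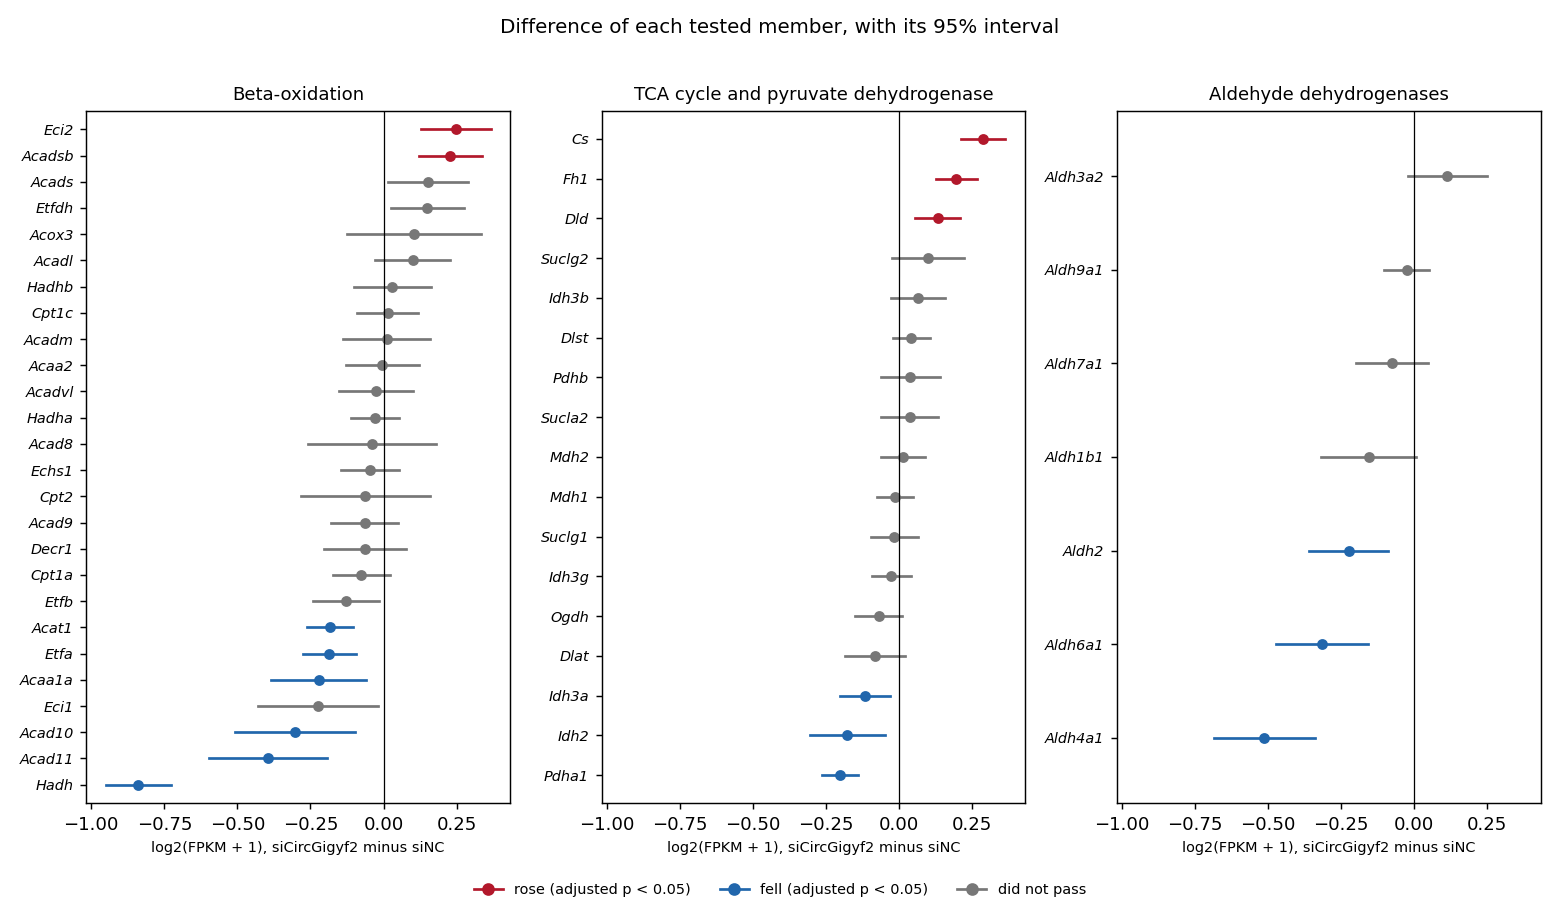
Difference of each of the 50 tested members on the log2(FPKM + 1) scale (x axis), with its 95% interval from limma as a line, in 3 panels by pathway and ordered by size. Hadh lies apart at -0.84, and the other members that passed lie between -0.51 and 0.29.

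Among the 26 beta-oxidation genes, 2 rose, 6 fell and 18 did not pass the test, so that 30.8% had changed where 38.2% of all genes tested had. By direction, 7.69% rose and 23.1% fell, against 19.5% and 18.7% of all genes tested. Their median difference was -0.04, and -0.0071 without siCircGigyf2 replicate 1, where the median of all genes tested was 0.00035. Hadh fell to 54.3% of its control level. Among genes of the steps before and after it, Echs1, Hadhb and Acaa2 did not pass, and the thiolase genes Acat1 and Acaa1a fell by 0.18 and 0.22. The members ranged from 1.06 FPKM for Acox3 to 50.8 FPKM for Etfa, with a median of 10.5.

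Hadh encodes the matrix hydroxyacyl-CoA dehydrogenase that acts on short and medium chains in the second dehydrogenation of each round. The gene spans chr3:131233419-131272101 on GRCm38 (minus strand) and has 8 exons. Its FPKM was 13.8, 15.2 and 13.3 in the siCircGigyf2 libraries and 25.8, 26.4 and 25.7 in the siNC libraries. Every siCircGigyf2 library was below every siNC library, with a wide gap between the groups. On the log2 scale Hadh fell by 0.84, with an SE of 0.0493 and a limma adjusted p of 1.58e-05, the 15th lowest difference of the 11420 genes. No other annotated gene overlapped its exons, and no near-identical transcript was found.

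The long-chain counterpart of these steps, the mitochondrial trifunctional protein, was not changed detectably in either subunit. Hadha, its alpha subunit, was at 22.1, 23.3 and 23.3 FPKM with siCircGigyf2 and 23.0, 23.8 and 23.3 with siNC. The difference of -0.03 had a 95% interval of -0.11 to 0.05. Hadhb, the beta subunit with the thiolase activity, was at 16.2, 14.9 and 17.3 against 15.7, 15.1 and 16.5 FPKM, with an interval of -0.10 to 0.16. The groups overlapped for both, and for Hadhb 2 processed pseudogenes (Gm13910 and Gm9108) match 69.7% and 69.6% of the transcript at 99.8% and 97.6% identity, so its reads may be shared. The genes lie head to head on chromosome 5, and their promoter windows share 228 of 300 bases. The window of Hadha (RefSeq, GRCm38.p6, chr5:30154931-30155230, minus strand) is printed because, by RefSeq starts, a single stretch lies upstream of both subunit genes. In GENCODE the span of Hadha reaches chr5:30155162, so that part of this stretch lies within the gene there. Capitals mark the bases shared with the window of Hadhb.
Hadha promoter window: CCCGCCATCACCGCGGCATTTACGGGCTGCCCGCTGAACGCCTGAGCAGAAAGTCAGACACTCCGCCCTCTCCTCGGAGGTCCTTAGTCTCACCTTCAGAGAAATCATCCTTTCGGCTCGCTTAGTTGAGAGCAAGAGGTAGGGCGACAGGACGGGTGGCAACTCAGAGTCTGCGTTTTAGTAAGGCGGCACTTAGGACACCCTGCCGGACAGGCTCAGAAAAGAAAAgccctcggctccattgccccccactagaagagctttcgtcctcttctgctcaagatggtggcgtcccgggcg
The within-library log2 ratio of Hadha to Hadhb was 0.51 ± 0.12 (SD, n = 3) with siCircGigyf2 and 0.57 ± 0.0824 with siNC. This ratio did not separate the groups (two-sided exact permutation test, p = 0.5).

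None of the 3 carnitine palmitoyltransferase genes passed the test. Cpt1a encodes the outer membrane enzyme that controls entry of acyl groups into the mitochondrion. Its FPKM was 15.0, 14.8 and 15.6 with siCircGigyf2 and 16.1, 16.5 and 15.4 with siNC, a difference of -0.08 (95% interval -0.17 to 0.02). Cpt1c, the isoform typical of neurons, was at 6.99 to 7.07 against 6.88 to 7.03 FPKM with an interval of -0.09 to 0.12. Cpt2, the inner membrane enzyme, was at 2.40 to 2.68 against 2.23 to 3.13 FPKM, and at this low level a difference of up to 0.28 in size lay within the interval. The groups overlapped for all 3 genes.

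Acyl-CoA dehydrogenases carry out the opening dehydrogenation of each round, each on its own chain length. Those for medium, long and very long straight chains did not pass. Acadm averaged 7.37 ± 0.689 FPKM (SD, n = 3) against 7.29 ± 0.216, Acadl 13.4 ± 0.869 against 12.4 ± 0.620 and Acadvl 6.12 ± 0.372 against 6.24 ± 0.0795. The groups overlapped for each of them, and the exons of Acadvl share 42.9% of their bases with Dvl2 on the opposite strand, which was higher, at 13.8 to 15.3 FPKM. Acads, for short chains, was at 9.97, 11.2 and 10.3 against 9.32, 8.71 and 9.95 FPKM. Every siCircGigyf2 library was above every siNC library, but replicate 1 only just above siNC replicate 3, and the difference of 0.15 did not pass (adjusted p = 0.0738). It did pass after quantile normalization (0.0435) and without siNC replicate 3 (0.0478).

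Of the 5 members of the same family that act mainly on branched or less usual substrates, 1 rose, 2 fell and 2 did not pass. Acadsb, which dehydrogenates a branched-chain intermediate of isoleucine breakdown, was at 15.9, 14.8 and 14.6 against 12.7, 12.3 and 13.2 FPKM. It was higher in every siCircGigyf2 library and rose by 0.23 (SE 0.0478, limma adjusted p = 0.00541). Acad11 was at 2.51, 2.19 and 3.03 against 3.62, 3.70 and 3.72 FPKM. The siNC libraries lay close together and all above the more scattered siCircGigyf2 libraries, and Acad11 fell by 0.40 (SE 0.0891, adjusted p = 0.00778). Acad10 was at 1.64, 1.51 and 1.38 against 2.43, 1.92 and 1.98 FPKM. The groups did not overlap and it fell by 0.30 (adjusted p = 0.0273). It no longer passed without siCircGigyf2 replicate 2 (0.0594), siCircGigyf2 replicate 3 (0.0781) or siNC replicate 1 (0.1004). Its near copy Acad12 was lower still, at 0.172 to 0.558 FPKM. Acad8, of valine breakdown, and Acad9, which also serves in assembly of respiratory complex I, averaged 2.17 against 2.26 and 7.89 against 8.29 FPKM and did not pass.

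The electrons taken by these dehydrogenases pass to the electron transfer flavoprotein and from there to ubiquinone. Etfa, its alpha subunit, was at 48.0, 47.3 and 47.0 against 53.0, 57.5 and 52.0 FPKM. The siCircGigyf2 libraries were all lower, and Etfa fell by 0.19 (limma adjusted p = 0.00659), with the caution that the processed pseudogene Gm15285 matches 34.9% of its transcript. Etfb, the beta subunit, was at 29.7, 30.7 and 33.8 against 34.5, 33.2 and 35.4 FPKM. Its exons share 53.0% of their bases with Gm45233 on the same strand, so its level is less certain. Here siCircGigyf2 replicate 3 lay within the range of the controls, and the difference of -0.13 did not pass (adjusted p = 0.0698). Without that library it passed, at -0.18 (0.0124), and it also passed in a fit blocked on replicate number (0.0477). The log2 ratio of Etfa to Etfb was 0.60 ± 0.112 (SD, n = 3) with siCircGigyf2 and 0.66 ± 0.122 with siNC, and the groups overlapped. Etfdh, which hands the electrons to ubiquinone, was at 11.4, 12.5 and 11.5 against 11.2, 10.2 and 10.2 FPKM. It was higher in every siCircGigyf2 library, but the difference of 0.15 did not pass (adjusted p = 0.0605) except without siNC replicate 1 (0.0365).

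Of the hydratase and the auxiliary enzymes for unsaturated chains, Eci2 was the member that passed. Echs1, the short-chain enoyl-CoA hydratase, averaged 43.0 ± 2.62 against 44.4 ± 0.705 FPKM and did not pass. Eci2, an enoyl-CoA isomerase, was at 18.3, 21.2 and 19.2 against 16.7, 16.0 and 16.2 FPKM. All siCircGigyf2 libraries were above all controls, and Eci2 rose by 0.25 (SE 0.0526, limma adjusted p = 0.00591). Its near copy Eci3 was at most 0.0484 FPKM. Eci1, the other mitochondrial isomerase, was at 12.6, 10.1 and 11.97 against 14.2, 11.98 and 14.9 FPKM. The groups overlapped through siCircGigyf2 replicate 1 and siNC replicate 2, and the difference of -0.22 did not pass (adjusted p = 0.0822). It passed without siNC replicate 2 (0.0242) and in the blocked fit (0.0125). The log2 ratio of Eci1 to Eci2 was -0.76 ± 0.268 (SD, n = 3) with siCircGigyf2 and -0.26 ± 0.149 with siNC. The groups did not overlap in this ratio, and the exact permutation p of 0.1 is the smallest that 3 against 3 libraries can give (0.233 adjusted over the 14 pairs compared). Decr1, a dienoyl-CoA reductase, was at 5.51 to 6.34 against 6.18 to 6.49 FPKM and did not pass.

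Of the thiolases other than Hadhb, which release acetyl-CoA, Acat1 and Acaa1a fell and Acaa2 did not pass. Acat1, acetoacetyl-CoA thiolase of ketone body and isoleucine metabolism, was at 40.3, 38.7 and 38.7 against 45.3, 45.4 and 43.3 FPKM. It was lower in every siCircGigyf2 library and fell by 0.18 (SE 0.0342, limma adjusted p = 0.00311). The peroxisomal thiolase gene Acaa1a was at 7.77, 9.19 and 8.53 against 10.98, 9.79 and 9.45 FPKM. Its groups nearly met at siCircGigyf2 replicate 2 and siNC replicate 3, and it fell by 0.22 (adjusted p = 0.0362). This call did not hold without siCircGigyf2 replicate 1 (0.113) or replicate 3 (0.0740), without siNC replicate 1 (0.120) or replicate 2 (0.0631), without a filter on low values (0.0884), without a variance trend (0.0517) and in the blocked fit (0.0692). The transcript also matches Acaa1b over 81.0% of its length at 96.6% identity, though Acaa1b itself was at only 0.219 to 0.515 FPKM. Acaa2, the mitochondrial ketoacyl-CoA thiolase, was at 8.21 to 8.70 against 8.03 to 9.12 FPKM, with an interval of -0.13 to 0.12. Acox3, a peroxisomal acyl-CoA oxidase, was at 1.09 to 1.201 against 0.751 to 1.13 FPKM and did not pass.

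**Figure D2:**
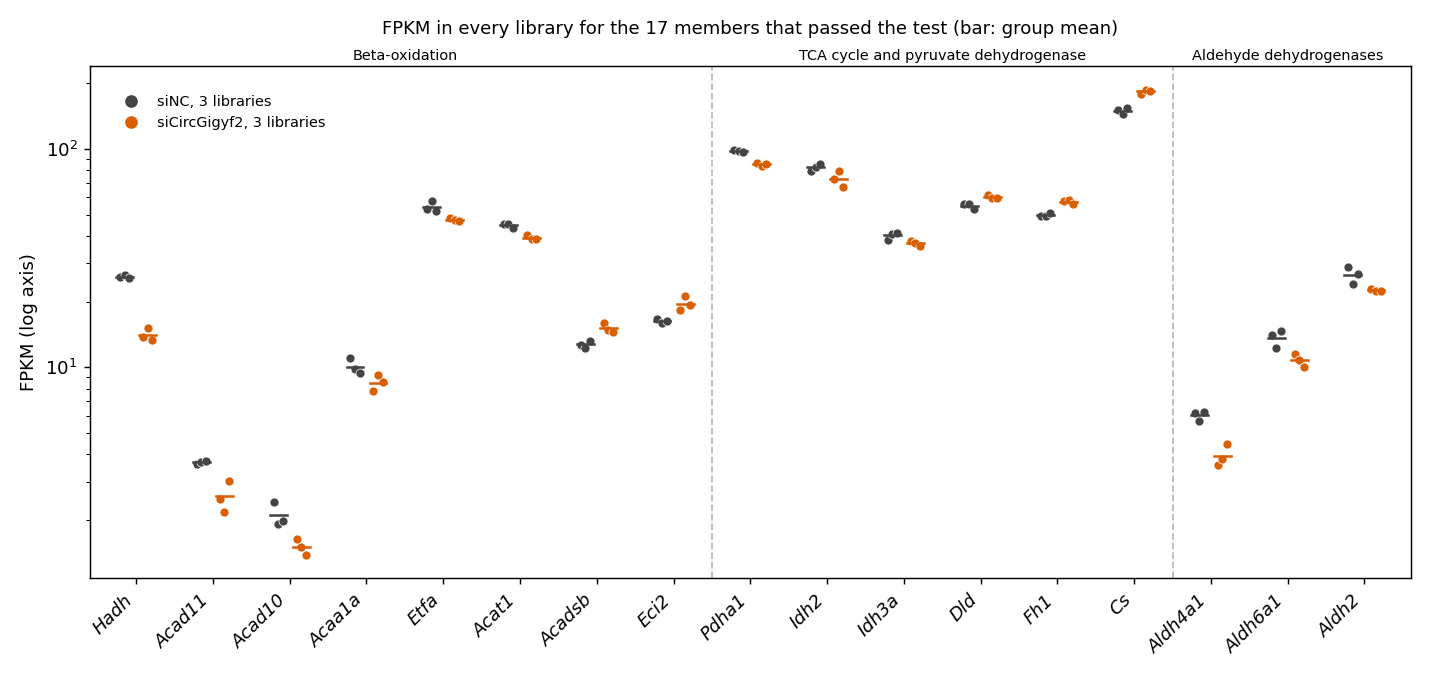
FPKM (y axis, log scale) in each of the 6 libraries for the 17 members that passed the test, by pathway, with a bar at each group mean. The groups are apart for each gene, widely for Hadh and by little for Idh2, Idh3a and Acaa1a.

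Levels of the TCA cycle and pyruvate dehydrogenase genes ran from 19.7 to 172 FPKM with a median of 57.9. Of 17 tested, 3 rose, 3 fell and 11 did not pass, so that 35.3% had changed where 38.2% of all genes had. Their median difference was 0.01. It was -0.03 after quantile normalization and, with each library left out in turn, lay between -0.0013 (without siNC replicate 2) and 0.034 (without siNC replicate 3). Cs rose the most, and Pdha1 fell the most. Without siNC replicate 3 only 3 members passed, 2 higher and 1 lower.

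Cs, citrate synthase, joins acetyl-CoA to oxaloacetate at the entry of the cycle and lies at chr10:128337734-128362479 on GRCm38 (plus strand). In the siCircGigyf2 libraries its FPKM was 179, 187 and 184, and in the siNC libraries 151, 144 and 154. Every siCircGigyf2 library was above every control, and Cs rose by 0.29 (SE 0.0334, limma adjusted p = 0.000254), or 0.23 after quantile normalization. Its copy Csl was listed at 0 in all 6 libraries.

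Isocitrate dehydrogenase genes were lower or did not pass. Idh3a, the catalytic subunit of the NAD-dependent enzyme, was at 37.8, 37.1 and 36.0 against 38.4, 40.9 and 41.2 FPKM. The groups nearly met at siCircGigyf2 replicate 1 and siNC replicate 1, and Idh3a fell by 0.12 (limma adjusted p = 0.0363). This call was lost without siCircGigyf2 replicate 2 (0.0646) or 3 (0.107), without siNC replicate 2 (0.107) or 3 (0.120), without a filter on low values (0.0563), without a variance trend (0.0717) and in the blocked fit (0.0700). The other subunits, Idh3b at 152 to 156 against 139 to 156 FPKM and Idh3g at 99.4 to 105 against 104 in each siNC library, did not pass. Idh3a was thus the least abundant of the 3 subunits, and its log2 ratio to Idh3b was -2.06 ± 0.0550 with siCircGigyf2 and -1.87 ± 0.0909 with siNC, without overlap (exact permutation p = 0.1). Idh2, the mitochondrial NADP-dependent enzyme, was at 73.1, 78.9 and 66.7 against 79.3, 82.5 and 85.1 FPKM. Its siCircGigyf2 libraries were scattered, with replicate 2 close to the controls. It fell by 0.18 (adjusted p = 0.0362) and no longer passed without siCircGigyf2 replicate 1 (0.0789) or 3 (0.0917), without siNC replicate 2 (0.0833) or 3 (0.109), without a filter on low values (0.0921) and without a variance trend (0.0748).

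The oxoglutarate dehydrogenase complex, built of Ogdh, Dlst and Dld, changed in the subunit that it shares. Dld is the dihydrolipoamide dehydrogenase that also serves pyruvate dehydrogenase and the branched-chain complex. It was at 61.4, 59.5 and 59.7 against 56.0, 55.7 and 52.8 FPKM, higher in every siCircGigyf2 library, and rose by 0.13 (limma adjusted p = 0.0132). Without siNC replicate 3 it missed the threshold (adjusted p = 0.0513). Ogdh was at 22.6, 21.7 and 21.9 against 22.6, 23.3 and 23.6 FPKM, and Dlst, the succinyltransferase core, at 68.6, 70.4 and 70.4 against 68.1, 67.7 and 67.4 FPKM. Neither passed, although the groups did not overlap for either, Ogdh lying lower and Dlst higher. The log2 ratio of Ogdh to Dlst was -1.66 ± 0.0519 against -1.55 ± 0.0383 and did not overlap between the groups (exact permutation p = 0.1, adjusted 0.233).

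Of the remaining steps of the cycle, fumarase was the member that passed. Suclg1, the subunit common to both succinyl-CoA ligases, was at 42.6 to 44.5 against 43.1 to 45.8 FPKM. Sucla2, of the ADP-forming enzyme, was at 20.9 to 21.4 against 19.4 to 21.3, and Suclg2, of the GDP-forming enzyme, at 19.1 to 21.2 against 17.9 to 20.0. None of these passed, and the groups overlapped for each. Of the genes of succinate dehydrogenase, which are not members, Sdhb averaged 187 ± 10.3 against 214 ± 3.99 FPKM and fell by 0.19 (limma adjusted p = 0.00540), whereas Sdha, Sdhc and Sdhd did not pass. Fh1, fumarase, was at 57.5, 58.2 and 56.0 against 49.1, 49.5 and 51.0 FPKM. Its groups were well apart, and it rose by 0.20 (SE 0.0309, adjusted p = 0.00127). Mdh2, the mitochondrial malate dehydrogenase, was at 170 to 178 against 165 to 175 FPKM, and Mdh1, its cytosolic counterpart, at 160 to 162 against 160 to 166. Their 95% intervals, -0.06 to 0.09 and -0.08 to 0.05, both include 0.

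Of the pyruvate dehydrogenase subunits other than Dld, Pdha1 fell and Pdhb and Dlat did not pass. Pdha1, the alpha subunit that carries the regulatory phosphorylation sites, lies at chrX:160122209-160138413 on GRCm38 (minus strand). It was at 85.7, 83.9 and 85.1 FPKM with siCircGigyf2 and 99.0, 97.4 and 96.7 with siNC. The replicates were tight and the groups far apart, and Pdha1 fell by 0.20 (SE 0.0269, limma adjusted p = 0.000554). Map3k15, which overlaps 16.1% of its exonic bases on the opposite strand, was at only 1.46 to 1.83 FPKM, and the pseudogene 4930519F09Rik at 0.204 to 0.584. Pdhb, the beta subunit, was at 57.7, 57.3 and 61.2 against 57.6, 53.9 and 60.0 FPKM and did not pass. The log2 ratio of Pdha1 to Pdhb was 0.53 ± 0.0512 with siCircGigyf2 and 0.78 ± 0.0822 with siNC. The groups did not overlap in this ratio (exact permutation p = 0.1, adjusted 0.233). No smaller p is possible with 3 against 3 libraries, so this test cannot pass 0.05 and cannot decide whether the subunits differed. The pseudogene Gm6123 matches 71.3% of the Pdhb transcript, so its level is less certain. Dlat, the acetyltransferase core, was at 22.6 to 24.4 against 23.8 to 26.0 FPKM and did not pass.

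**Figure D3:**
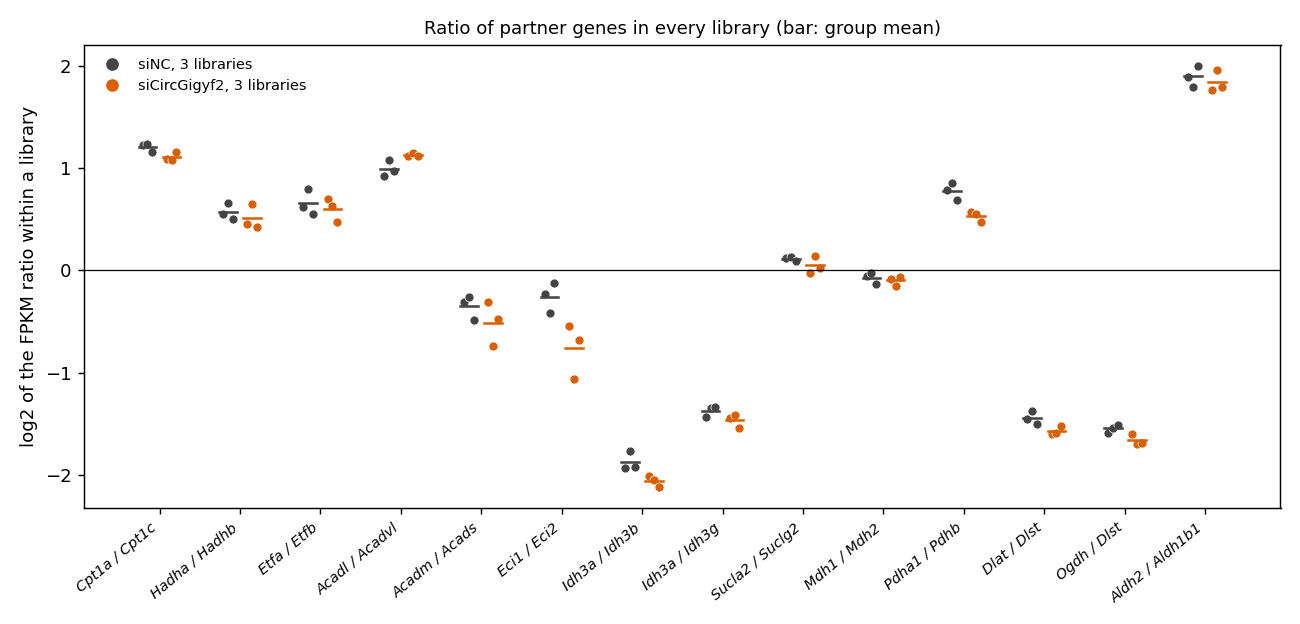
Log2 ratio of FPKM between partner genes within each library (y axis) for the 14 pairs compared, with a bar at each group mean. The groups do not overlap for 6 pairs, among them Eci1 / Eci2 and Pdha1 / Pdhb. Each of these has an exact permutation p of 0.1 (adjusted 0.233), the smallest that 3 against 3 libraries can give. No pair could therefore pass, and this test cannot decide whether the ratios differed.

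Genes around the cycle that are not members were taken from a further list. Of 36 tested, covering pyruvate transport, pyruvate dehydrogenase regulation and exchange of cycle intermediates, 7 rose and 10 fell, or 47.2% where 38.2% of all genes had changed. Mpc1, a subunit of the mitochondrial pyruvate carrier, averaged 47.5 ± 2.65 against 74.9 ± 1.55 FPKM (SD, n = 3) and fell by 0.65 (limma adjusted p = 2.09e-05). Pdp2, a phosphatase that activates pyruvate dehydrogenase, was at 29.5 ± 0.854 against 20.9 ± 0.504 FPKM and rose by 0.48 (4.19e-05). The kinases that inactivate that complex differed among themselves. Pdk3 rose by 0.34 (adjusted p = 0.00455), Pdk2 fell by 0.32 (0.0234), Pdk1 had a difference of -0.01 and Pdk4 was listed at 0 in all 6 libraries. The malic enzymes moved in opposite directions, with the cytosolic Me1 falling by 0.33 (adjusted p = 5.53e-05) and the mitochondrial Me2 rising by 0.48 (0.000117). Slc25a1, the citrate carrier, rose by 0.29 (9.06e-05), and Glud1, glutamate dehydrogenase, fell by 0.39 (0.000111).

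Aldehyde dehydrogenases that passed the test were all lower. Of 8 members, Aldh5a1 was not tested, 3 of the other 7 fell, none rose and 4 did not pass. The 42.9% that changed all fell, where 38.2% of all genes tested changed and 18.7% fell, but 7 genes are too few to compare shares. Leaving out members with a copy or an overlapping gene left 1, Aldh2, that passed. The median difference of the 7 was -0.16, and -0.098 without siCircGigyf2 replicate 2 and -0.10 without siNC replicate 1. Levels ran from 0.272 FPKM for Aldh5a1 to 58.2 FPKM for Aldh9a1.

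Aldh4a1, of the proline breakdown pathway, lies at chr4:139622866-139649690 on GRCm38 (plus strand). With siCircGigyf2 it was at 3.57, 3.83 and 4.44 FPKM and with siNC at 6.21, 5.68 and 6.24. The groups were well apart, and Aldh4a1 fell by 0.51 (SE 0.0759, limma adjusted p = 0.000927). Its exons share 32.5% of their bases with Gm21969, an overlapping gene on the same strand, so that part of the reads could belong to either. Aldh6a1, the methylmalonate semialdehyde dehydrogenase of valine breakdown, was at 11.5, 10.8 and 10.1 against 14.0, 12.3 and 14.7 FPKM. It was lower in every siCircGigyf2 library and fell by 0.32 (SE 0.0699, adjusted p = 0.00717), with 18.6% of its exonic bases overlapped by Bbof1 on the other strand. Aldh2, the mitochondrial enzyme best known for acetaldehyde, was at 22.8, 22.3 and 22.3 against 28.8, 24.0 and 26.8 FPKM. The siCircGigyf2 libraries were tight and all below the more scattered controls, and Aldh2 fell by 0.22 (SE 0.0591, adjusted p = 0.0160).

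The other aldehyde dehydrogenases did not pass. Aldh1b1, a mitochondrial relative of Aldh2, was at 6.73, 5.73 and 6.43 against 7.75, 6.93 and 6.70 FPKM. The groups just overlapped, and the 95% interval of -0.32 to 0.01 holds the value found for Aldh2. The log2 ratio of Aldh2 to Aldh1b1 did not separate the groups (exact permutation p = 0.6). Aldh3a2, the fatty aldehyde dehydrogenase, was at 5.03, 4.97 and 4.55 against 4.30, 4.44 and 4.48 FPKM, higher in every siCircGigyf2 library by a small margin (adjusted p = 0.159). Aldh7a1, of lysine breakdown, was at 6.89 to 7.52 against 7.45 to 8.05 FPKM. Aldh9a1, of carnitine synthesis, was at 55.6 to 59.3 against 57.7 to 60.0 FPKM, with an interval of -0.10 to 0.05. Aldh5a1, the succinate semialdehyde dehydrogenase of GABA breakdown, lay between 0.219 and 0.377 FPKM in all 6 libraries.

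Family members outside the list were mostly silent. Of 12, only 4 reached 1 FPKM and were tested. Of these, 3 fell, where 18.7% of all genes tested were lower, and 4 genes are too few to compare shares. Aldh18a1, of proline synthesis, averaged 23.7 ± 0.604 against 30.3 ± 0.911 FPKM (SD, n = 3) and fell by 0.34 (limma adjusted p = 0.000177). Aldh16a1 averaged 2.92 ± 0.0527 against 4.35 ± 0.363 FPKM and fell by 0.45 (0.00111), and Aldh1l2, a mitochondrial enzyme of folate metabolism, 24.1 ± 0.964 against 28.0 ± 1.31 FPKM (fall of 0.21, 0.00667). Aldh1a1, typical of a class of dopaminergic neurons, was listed at 0 in 5 libraries and at 0.0240 FPKM in siNC replicate 2.

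Fatty acid oxidation genes outside the list changed in both directions, with 9 of 46 tested higher (19.6%, against 19.5% of all genes) and 10 lower (21.7%, against 18.7%). Acot9, a mitochondrial acyl-CoA thioesterase, had the largest difference, at 20.9 ± 0.697 against 12.6 ± 1.28 FPKM (SD, n = 3), a rise of 0.69 (limma adjusted p = 0.000101). Acsl4, which activates long-chain polyunsaturated fatty acids, rose by 0.26 (0.000389), the fatty acid transporter Slc27a4 by 0.34 (0.00162) and Pex5, the import receptor of peroxisomes, by 0.24 (0.00178). Hibch, which acts upstream of Aldh6a1 in valine breakdown, averaged 8.49 ± 0.590 against 13.1 ± 1.07 FPKM and fell by 0.57 (0.000275), and Pccb, a subunit of propionyl-CoA carboxylase, fell by 0.54 (0.000988). Hibch also held GCCTACA in its 3' UTR, and Pccb was not among the holders. Slc25a20, the carnitine carrier, averaged 8.39 ± 0.328 against 7.65 ± 0.115 FPKM and did not pass (0.0853).

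**Figure D4:**
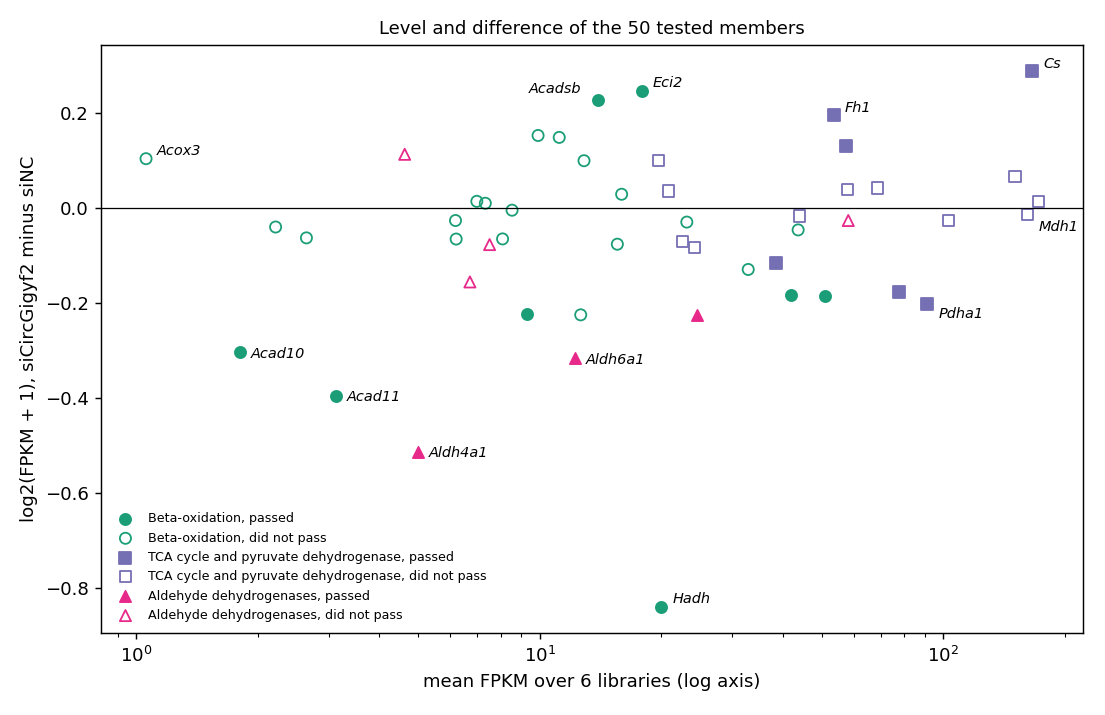
Mean FPKM over the 6 libraries (x axis, log scale) against the difference on the log2(FPKM + 1) scale (y axis) for the 50 tested members, with filled symbols for those that passed. The TCA cycle and pyruvate dehydrogenase genes (squares) lie at 19.7 FPKM and above and between -0.20 and 0.29, and the larger falls lie among the beta-oxidation genes (circles) and aldehyde dehydrogenases (triangles).

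Summed over members, beta-oxidation genes came to 366, 376 and 376 FPKM in the siCircGigyf2 libraries and 400.4, 400.4 and 397 in the siNC libraries. The TCA cycle and pyruvate dehydrogenase genes came to 1338, 1350 and 1345 against 1316, 1297 and 1336 FPKM, and the aldehyde dehydrogenases to 112, 115 and 114 against 129, 120 and 124. No test was made of these sums, which the abundant members dominate. Among the 33 tested members that did not pass, the 95% interval lay within 0.26 on either side of 0 for 27. The exceptions were Acads, Eci1, Etfdh, Cpt2, Acox3 and Aldh1b1. For Cpt2, Acox3 and Aldh1b1 the interval held both 0 and differences larger than 0.26 in size, which cannot be told apart at this precision. The intervals of Acads (0.02 to 0.29), Eci1 (-0.43 to -0.02) and Etfdh (0.02 to 0.27) excluded 0. These intervals are not adjusted for the number of genes tested, and these 3 genes missed the adjusted threshold.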

How the data were processed

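The authors deposited 1 table of FPKM per gene symbol for 6 RNA-seq libraries of CAD cells, 3 per group. The build was mm9, per the submitters' processing notes. Not given in the sources used here are the aligner, quantifier, annotation and strand handling, so overlapping genes cannot be separated, and an exact 0 is reported as listed at 0. Absolute depth was not given; relative depth came from the ratio of low values (under 0.3 FPKM) between libraries. Groups came from the treatment labels and replicate numbers from the titles. Where replicates were not separate cultures, the p-values reflect only how far these samples spread, possibly for technical reasons.

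Genes averaging 1 FPKM or more were fitted with limma 3.58.1 in R 4.3.3 on log2(FPKM + 1), with empirical Bayes, a mean-variance trend and two-sided tests, Benjamini-Hochberg adjusted over all 11420 genes. This scale understates changes of low genes. The fit was tested on simulated data. Partner ratios used log2 of the FPKM ratio within a library and a two-sided exact permutation test over the 6 libraries, adjusted over 14 pairs. Members, lists, pairs and motifs were chosen with earlier results of these data known. Any member could be named; of other lists, the 6 with the smallest adjusted p below 0.05, the Sdh and Pdk genes, Slc25a20, Ppargc1a and Gigyf2.

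Transcripts came from GENCODE M21 (GRCm38, not the build of the files), joined by symbol, with the longest coding sequence per gene; copies were sought with blastn 2.17.0 among its transcripts. Promoter windows are from RefSeq (GRCm38.p6), with 44 of 51 members matched. Each library was left out in turn; other alternatives changed the pseudocount (0.1), the filter (none, or 5 FPKM), the scaling (quantile, or median of ratios), the trend (none) or the empirical Bayes step (robust), or blocked on replicate number. Counts without members that have a copy or an overlapping gene were added after seeing the data.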

Additional observations from a re-analysis of the deposited data

How the results depend on the processing

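Of the 17 members that passed, 12 did so under every alternative that tested them, and Acad10, Acaa1a, Idh2, Idh3a and Dld were lost under at least 1, as given above. A filter of 5 FPKM left Acad8, Acad10, Acad11, Cpt2, Acox3, Aldh3a2 and Aldh4a1 untested. Of the 33 members that did not pass, 4 passed under at least 1 alternative (Acads, Eci1, Etfb and Etfdh) and 12 changed sign. With 1 library left out, the genes past the threshold numbered 3521 to 3933, the beta-oxidation members 7 to 9, the TCA cycle and pyruvate dehydrogenase members 3 to 6 (3 without siNC replicate 3) and the aldehyde dehydrogenases 3 throughout. Another count omitted members with a near-identical copy over at least 30% of the transcript, or a gene overlapping at least 10% of their exons. It left 4 beta-oxidation members past the threshold (1 higher, 3 lower) and 4 of the TCA cycle and pyruvate dehydrogenase (2 higher, 2 lower). Of the aldehyde dehydrogenases 1 was left, Aldh2, where 3 had passed. The members that passed but were omitted were Acad10, Eci2, Etfa, Acaa1a, Cs, Pdha1, Aldh4a1 and Aldh6a1. The median of the TCA cycle members was -0.031 after quantile normalization, and the cause was not tested.

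For the 12 members that changed sign, none of which passed, the differences with 1 library left out ranged from -0.020 to 0.083 for Hadhb, -0.046 to 0.073 for Acadm, -0.050 to 0.018 for Acadvl, -0.093 to 0.042 for Acad8, -0.086 to 2.39e-05 for Echs1 and -0.16 to 0.016 for Cpt2. They ranged from -0.044 to 0.038 for Acaa2, -0.033 to 0.010 for Suclg1, -0.0028 to 0.062 for Sucla2, -0.024 to 0.0018 for Mdh1, -0.010 to 0.034 for Mdh2 and -0.0013 to 0.075 for Pdhb. After quantile normalization Acaa2 was at 0.0081 and Mdh2 at -0.031.

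In the fit with a replicate block, 3973 genes passed, with 9 beta-oxidation members, 5 of the TCA cycle and 3 aldehyde dehydrogenases. Same-numbered libraries deviated together with correlations of 0.16, -0.021 and 0.0025, and 2 of 6 libraries correlated best with their own number, so the numbers are not taken to pair the samples. The largest standard errors were those of Acox3, Cpt2 and Acad8, all under 3 FPKM, and then of Eci1 (0.0912) at 12.6 FPKM; the part of depth in them was not tested.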

Other observations

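Regulators of oxidative metabolism were also measured. Of 16 tested from a list of 20, 2 rose and 2 fell, or 25%, where 38.2% of all genes tested had changed. Ppard, a nuclear receptor for fatty acids, averaged 16.3 ± 0.0469 FPKM (SD, n = 3) with siCircGigyf2 against 18.7 ± 0.491 with siNC and fell by 0.19 (limma adjusted p = 0.00380). Tfam, which packages and transcribes mitochondrial DNA, averaged 15.3 ± 0.358 against 17.5 ± 0.464 FPKM and fell by 0.18 (0.00635). Gabpb1, the partner of an ETS factor that binds promoters of nuclear genes for mitochondrial proteins, rose by 0.12 (0.0355), and Sirt5, a mitochondrial desuccinylase, by 0.26 (0.0408). Ppargc1a, the coactivator of mitochondrial biogenesis, was listed at 0 in 4 libraries and at most at 0.00727 FPKM.

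The promoter windows of 44 members, from 250 bases before to 50 after the start, were searched on both strands for 5 short motifs, any window of a gene counting. CCAAT (NF-Y) was in 25 members (56.8%) and in 41.1% of all 27025 genes with a window. GCATGCG (NRF1 core) was in 6 members (13.6% against 4.01%), which were Acadm, Acad10, Etfa, Etfdh, Ogdh and Pdhb. AAGGTCA, the binding letters of estrogen-related receptors, was in Acadm and Ogdh (4.55% against 5.38%). ACTTCCG, of the ETS and GABP kind, was in 4 (9.09% against 7.20%), and CACGTG, an E-box, in 2 (4.55% against 8.09%). The shares of all genes include genes not expressed here, whereas nearly all members were expressed, and shares among the tested genes were not computed. A match is a description of these letters and not of a bound site.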
